A study of Mus musculus with 3 samples.

Results

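The CD11b+ conventional dendritic cells (cDC) of mouse spleen were compared with each of the other dendritic cell subsets sorted beside them, plasmacytoid dendritic cells (pDC) and CD8+ cDC. A gene was taken as higher in CD11b+ cDC when its signal exceeded that of the brighter of the other arrays at least 2-fold, and as lower when it was at least 2-fold below the dimmer of them. Of 18194 genes on the array, 11011 were above background on at least 1 array. Of these, 551 were higher in CD11b+ cDC than in both other subsets (5.00%) and 328 were lower than in both (2.98%), 879 in all. The members were chosen by these same signals, so every value below describes 3 arrays and supports no test.

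All cells came from spleens of healthy, untreated female C57BL/6 mice aged 6 to 8 weeks. T and B cells were first removed with magnetic beads, and the 3 subsets were then purified on a cell sorter. Each subset's RNA was a pool of 5 to 8 mice, and 20 ng of it was amplified and labelled with biotin. Each subset was hybridised to 1 array, so mice, sort, amplification and array cannot be told apart from the cell type, and no value has a replicate error. The deposited value is a fluorescence intensity per probe set, called the signal below. The background level was a signal of 111, the 95th percentile of 87 probe sets for olfactory, vomeronasal, trace amine and taste receptors on the array where that percentile was highest. Lower signals were raised to this level before a fold was taken, so a fold against background is given as "at least".

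Dendritic cells take up antigen, carry it to lymphoid tissue and present it to T cells. The CD11b+ cDC, also called cDC2, are known for presenting antigen on MHC class II to CD4+ T cells, and in the spleen many of them depend on Notch2 signalling through RBPJ and on the transcription factors IRF4 and KLF4. The CD8+ cDC, also called cDC1, depend on IRF8 and BATF3 and are known for cross-presentation on MHC class I. The pDC depend on TCF4 (E2-2) and are known for type I interferon.

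The sort genes followed the label. Itgam, which encodes the CD11b chain of the integrin Mac-1, had a signal of 2786 in CD11b+ cDC against 63.6 in pDC and 64.3 in CD8+ cDC, both below background, and was at least 25.1-fold higher. Cd8a, the CD8 alpha chain, had 702 in CD11b+ cDC against 32230.5 in pDC and 203567 in CD8+ cDC, and was 45.9-fold below pDC, with all 5 of its probe sets passing. Itgax, the CD11c integrin chain carried by all dendritic cells, had 152080.1 in CD11b+ cDC, 27138 in pDC and 82543 in CD8+ cDC, which was 1.84-fold above CD8+ cDC and short of the 2-fold size.

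Of the 18 listed CD11b+ cDC marker genes that were measured, 14 were higher than in both other subsets (77.8%, against 5.00% over all genes) and 0 were lower. The other 4, Cd4, Cd209a, Clec10a and Mgl2, were all brightest in pDC. The list includes the markers given for this comparison, Itgam, Dtx1, Ryr3, Esam and Clec4a2. It was also chosen with earlier results of these data known, so its share was partly set in advance and is no support for the label. Cd4 had 14501 in CD11b+ cDC, 37302 in pDC and 110.1 in CD8+ cDC, and Clec10a, a galactose-binding lectin, had 957 against 186442 in pDC. Of 20 CD8+ cDC markers, 0 were higher in CD11b+ cDC and 5 were lower than in both others (25.0%, against 2.98% over all genes). Of 20 pDC markers, 1 was higher, Cd300c2, matched through a synonym, and 2 were lower, Ccr9 and Pacsin1. Of 14 housekeeping genes, 0 were higher and 0 were lower than in both others, but some differed from a single array. Gusb was 15.1-fold below CD8+ cDC, and Gapdh and Hprt were 2.18-fold and 2.02-fold above pDC. Tfrc was 4.42-fold above CD8+ cDC and 2.63-fold below pDC.

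The arrays also differed in their control probe sets. The 3′ over 5′ signal of the control probe sets for Actb was 2.91 in CD11b+ cDC, 5.71 in pDC and 4.08 in CD8+ cDC, and that for Gapdh was 9.68, 16.2 and 17.6. The CD11b+ array therefore had the lowest 3′ bias on both controls. Hybridisation spike-ins, bacterial and phage transcripts added to each sample, had a mean log2 signal of 14.27 in CD11b+ cDC, 14.63 in pDC and 15.27 in CD8+ cDC. Scaling the arrays to equal spike-ins moved the median log2 difference of all genes from -0.01 to 0.29 against pDC and from 0.00 to 0.93 against CD8+ cDC. The calls then became 1507 higher and 110 lower, so the share of calls that were higher went from 62.7% to 93.2%. The part of these differences in the results was not tested. Fewer cells of a type and less RNA per cell cannot be told apart in bulk RNA.

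Most of these differences were under 4-fold. Of the genes that were higher, 222 were at least 4-fold above the nearer subset (2.02% of all genes above background) and 92 at least 10-fold (0.836%). Of the genes that were lower, 87 were at least 4-fold below (0.790%) and 33 at least 10-fold (0.300%). For 79 of the 551 the other arrays were both at background and the fold is a bound. These 79 passed the background filter only through the CD11b+ array. List shares are likewise of members above background on at least 1 array. Among the other 472, the nearer subset was CD8+ cDC for 312 and pDC for 160. Among the 328 that were lower it was CD8+ cDC for 193 and pDC for 135. A further 327 genes lay between the other subsets, at least 2-fold from each.

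**Figure D1:**
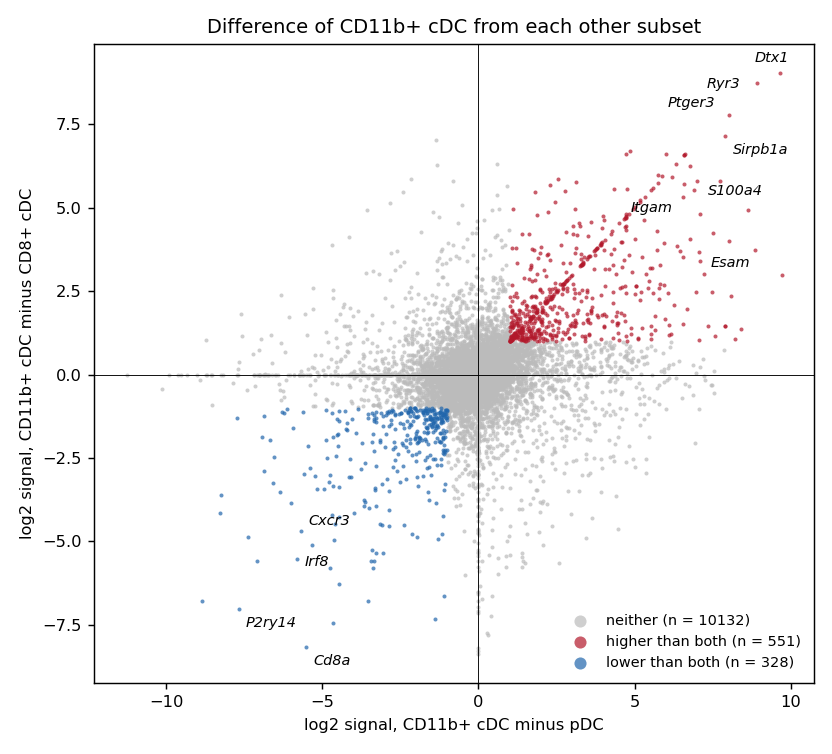
Log2 signal of CD11b+ cDC minus pDC (horizontal axis) and minus CD8+ cDC (vertical axis) for the 11011 genes above background on at least 1 array, 1 point per gene. The 551 genes higher than both lie in the upper right corner and the 328 lower than both in the lower left, and the lines of points along the diagonal and the axes hold genes with arrays at the background level.

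The genes nearest to the 2-fold limit show how sharp it is. Just inside, Fcgr4, an Fc receptor for IgG, had 2488 in CD11b+ cDC and 1242 in CD8+ cDC, and Rest, a transcriptional repressor, had 6574 against 3286 in pDC. Just outside, Wipf1, which binds the actin regulator WASP, had 111678 against 55841 in CD8+ cDC. On the lower side, Dicer1, the microRNA-processing enzyme, was just inside at 3599 against 7208 in CD8+ cDC, and Pmvk, an enzyme of the mevalonate pathway, just outside at 10732 against 21385.

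Probe sets of the same gene give the only error these arrays hold, and it leaves out mice, sorts and amplification. The second probe set was above background for 4966 genes, and over these the log2 differences of both probe sets differed with an SD of 0.87 against pDC and 0.75 against CD8+ cDC. Of 216 genes that were higher by the brightest probe set and had another, the second called 138 higher as well (63.9%) and 0 lower. Of 180 genes that were lower, it called 87 lower (48.3%) and 0 higher. Repeat calls were more frequent at large sizes. For higher genes the share was 56.2% at 2-fold to 4-fold, 78.6% at 4-fold to 10-fold and 80.0% from 10-fold on, and for lower genes it was 39.4%, 72.4% and 85.7%.

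**Figure D2:**
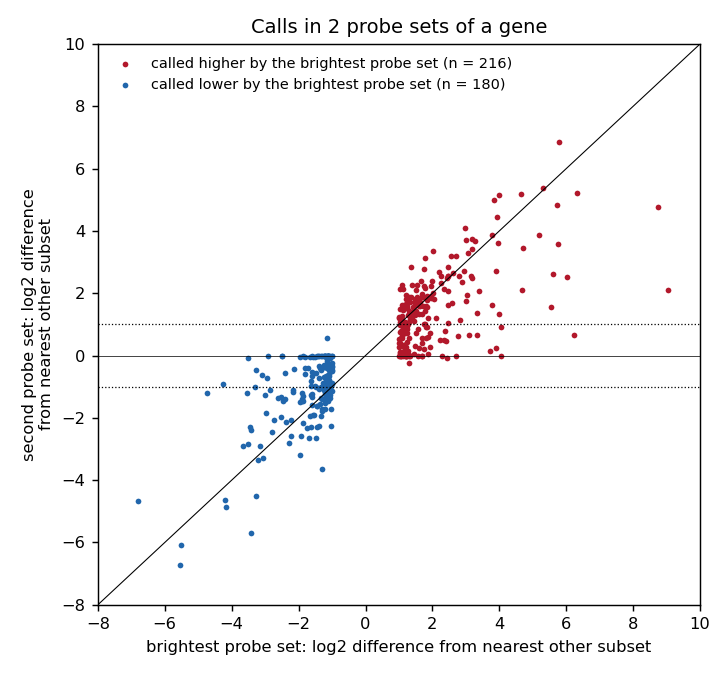
Log2 difference of CD11b+ cDC from the nearer other subset in the brightest probe set of a gene (horizontal axis) and in its second probe set (vertical axis), 1 point per called gene. Dotted lines mark the 2-fold size. The second probe set repeated the call for 138 of 216 higher genes and 87 of 180 lower genes, and no point lies beyond the dotted line on the opposite side.

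The largest difference of the comparison was in Dtx1, which encodes Deltex1, a ubiquitin ligase of the Notch pathway. Its signal was 89345 in CD11b+ cDC against 73.7 in pDC and 169.5 in CD8+ cDC, 527-fold above CD8+ cDC. The second probe set of Dtx1 also passed, at no less than 4.30-fold, since both other arrays were below background on it. Ryr3, the ryanodine receptor isoform that releases calcium from the endoplasmic reticulum, had 53428 against 87.6 and 124. Its 3 probe sets gave 431-fold, at least 27.3-fold and at least 13.5-fold. Both genes were close to background on the other arrays. Esam, an adhesion molecule of endothelial cells that also marks the Notch2-dependent CD11b+ cDC, had 20158 against 136 in pDC and 2516 in CD8+ cDC, 8.01-fold above the latter.

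Of 33 listed Notch pathway genes above background, 2 were higher (Dtx1 and Esam) and 1 was lower, which is 6.06% and 3.03% against 5.00% and 2.98% over all genes, with a median log2 difference of -0.06 against pDC and 0.00 against CD8+ cDC. Notch2 itself had 65924 in CD11b+ cDC, 65924 in pDC and 73077 in CD8+ cDC. Rbpj, the DNA-binding factor of the pathway, had 40151, 22218 and 75716 in the same order. Both of these genes were thus highest in CD8+ cDC on the deposited scale. Spike-in scaling moved the median log2 difference of all genes against CD8+ cDC from 0.00 to 0.93, which bears on this order. Notch1, the gene called lower, had 557 against 43858 in pDC and 1199 in CD8+ cDC. It was 2.15-fold below CD8+ cDC on 1 of 2 probe sets and short of the size, with a log2 difference of -0.11 when arrays were scaled on spike-ins. The target gene Hes1 had 4767 against 329.5 in pDC and 2521 in CD8+ cDC, which was 1.89-fold and not called. With spike-in scaling, 6 pathway genes were higher and 0 lower, where the shares over all genes were 14% and 1.02%.

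**Figure D3:**
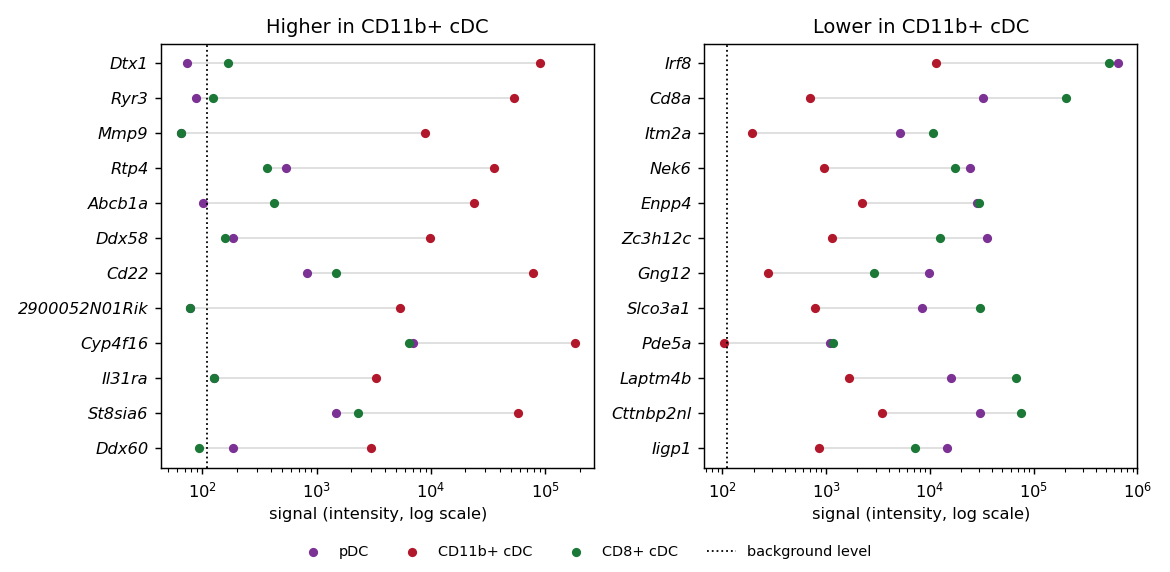
Signal on the 3 arrays (log scale) of the 12 genes per direction with the largest fold from the nearer other subset among genes with at least 2 probe sets that all passed. In the left panel the CD11b+ point lies to the right of both others, by 15.9-fold (Ddx60) to 527-fold (Dtx1), and in the right panel to the left, by 8.38-fold (Iigp1) to 46.3-fold (Irf8). The dotted line is the background level of 111.

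Among 55 listed transcription factors of dendritic cells, 8 were higher in CD11b+ cDC and 2 were lower (16 and 2 with spike-in scaling). The shares were 14.5% and 3.64%, against 5.00% and 2.98% over all genes. Irf8, the factor that CD8+ cDC need, had 11554 in CD11b+ cDC against 646349 in pDC and 534491 in CD8+ cDC. It was 46.3-fold lower than in CD8+ cDC by its brightest probe set and 105-fold by the other. Mycl, a Myc family member, had 9219 against 28677 and 64087, 3.11-fold below pDC, and 1 of its 2 measured probe sets passed. Both lower factors were high on the pDC and the CD8+ array alike.

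Irf4, the factor tied to CD11b+ cDC, had 11713 in CD11b+ cDC against 5566 in pDC and 855 in CD8+ cDC, 2.10-fold above pDC, and 1 of its 2 measured probe sets passed. Klf4, a zinc finger factor needed by part of the CD11b+ cDC, had 92170.4 against 44347 and 14332, which was 2.08-fold, and both of its probe sets passed. Irf4 and Klf4 were therefore only just past the size against pDC, and farther from CD8+ cDC. The larger differences were in Tbx21, which encodes T-bet, and Stat4, which signals from the interleukin-12 receptor. Tbx21 had 13146 against 71.4 and 285, 46.1-fold above CD8+ cDC. Stat4 had 6277 against 474 and 519.6, 12.1-fold. Bhlhe40 was 4.25-fold higher, Relb 3.04-fold, Nr4a1 2.35-fold and Rel 2.09-fold. Zbtb46, the factor shared by all cDC, had 19657 in CD11b+ cDC, 215 in pDC and 31850.3 in CD8+ cDC.

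C-type lectins of the DCIR and Dectin families bind sugars on microbes and signal through ITIM or ITAM motifs. Of 9 above background, 4 were higher (44.4%, against 5.00% over all genes) and 0 lower. Clec4a2 (DCIR, an inhibitory receptor) had 34496 in CD11b+ cDC against 318 in pDC and 457 in CD8+ cDC, 75.4-fold. Its second probe set, at 175 with both others below background, gave at least 1.58-fold and did not pass. Clec4a3, a close relative, had 20086 against 769 and 999, which was 20.1-fold on its only probe set. Clec7a, the beta-glucan receptor Dectin-1, was 6.54-fold higher, and Clec4n, the mannan receptor Dectin-2, was 3.90-fold higher on the brighter of 2 probe sets that both passed. Clec4b1 was 1.91-fold above CD8+ cDC and not called.

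Receptors with inhibitory or activating motifs formed a broad group. Of 36 such receptors above background, 13 were higher (36.1%, against 5.00% over all genes) and 0 lower. Sirpb1a, an activating SIRP receptor, had 26782 against 92.9 in pDC and 189.6 in CD8+ cDC, 141-fold. Sirpa, its inhibitory relative that binds CD47, had 78989 against 36974 and 2545, which was 2.14-fold above pDC. Cd22, an inhibitory Siglec best known on B cells, had 78539.6 against 819 and 1493, 52.6-fold, and its other probe set gave at least 28.5-fold. Trem3 was at least 26.4-fold higher. Pilrb1 was 10.8-fold higher and Siglecg 3.32-fold. Tyrobp, the DAP12 adaptor of many of these receptors, was brightest in pDC at 467190.2, with 273280.2 in CD11b+ cDC and 118140.5 in CD8+ cDC, and Fcer1g, the Fc receptor gamma chain, had 42453 in CD11b+ cDC and 29553 in pDC, which was not called.

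Some of the called genes lay next to each other in the genome. Of 550 higher genes with a position in the GRCm38.p6 gene table, 140 (25.5%) were next to another higher gene in the order of genes measured, and of 328 lower genes 43 (13.1%) were next to another lower one. Over all 10975 genes placed, 9.59% lay next to a higher gene and 5.89% next to a lower one. The runs of 3 or more comprised 9 for higher and 2 for lower genes. The longest held 6 genes each, Dtx1 with Oas2, Oas3, Oas1c, Oas1b and Oas1a, and Ms4a7 with Ms4a4c, Ms4a4b, Ms4a6c, Ms4a6b and Ms4a6d, membrane proteins of the MS4A family. Further runs held Cd300a, Cd300lb, Cd300ld, Cd300c2 and Rab37, then Ifitm2, Ifitm1, Ifitm3 and Ifitm6, and the 3 C1q chains. Related genes can share probe sequence, and the part of cross-hybridisation in these runs was not tested. Within the MS4A run the signals differed in size and in their second array. Ms4a4c had 135699 in CD11b+ cDC, 25042 in pDC and 3759.7 in CD8+ cDC, whereas Ms4a6b had 48854, 599.7 and 3379.

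**Figure D4:**
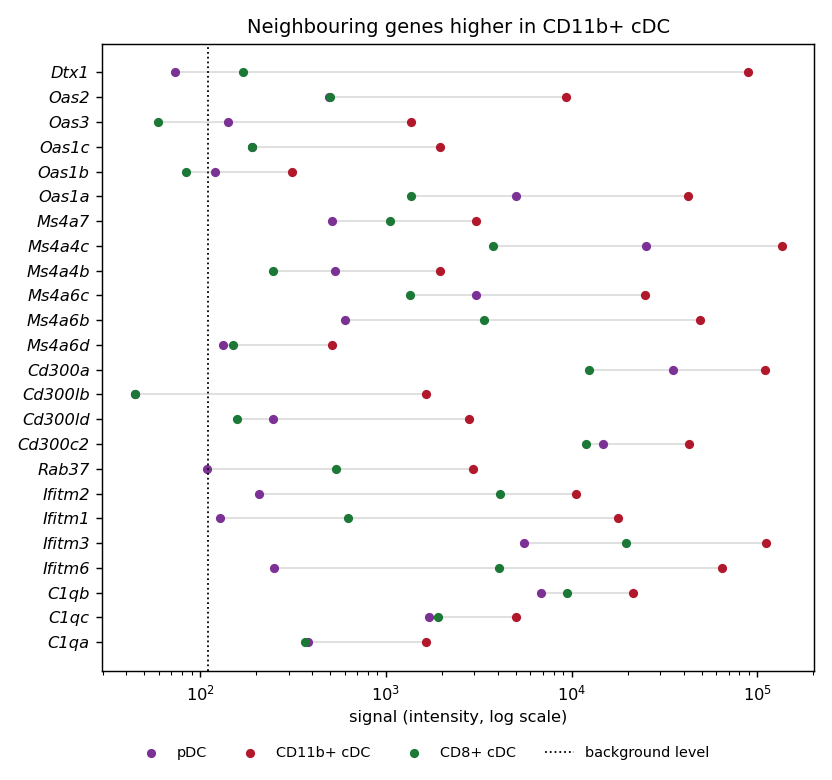
Signal on the 3 arrays (log scale) of genes in 5 runs of neighbours higher in CD11b+ cDC, in genome order within each run. The CD11b+ point lies to the right of both others in every gene, by 2.26-fold (C1qb) to 527-fold (Dtx1), and the order of pDC and CD8+ cDC changes from gene to gene. The dotted line is the background level of 111.

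Interferon-stimulated genes were split in direction. Of 33 above background, 10 were higher in CD11b+ cDC than in both others and 3 were lower (14 and 1 with spike-in scaling). The shares were 30.3% and 9.09%, against 5.00% and 2.98% over all genes. The median log2 difference was 0.61 against pDC and 1.0 against CD8+ cDC. Many sensors and effectors of viral RNA were among the higher genes. Ddx58, which encodes the RNA sensor RIG-I, had 9927 against 185 in pDC and 158 in CD8+ cDC. Its 3 probe sets gave 53.6-fold, at least 11.8-fold and at least 2.29-fold. Ifih1, the sensor MDA5, had 70537 against 19213 and 18280.0, 3.67-fold. Ddx60 was 15.9-fold higher. Rtp4, an interferon-induced chaperone of receptors, had 35399 against 545 and 365, 65.0-fold.

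The oligoadenylate synthetases, which activate RNase L, were higher together. Oas2 had 9349 against 495 and 503, 18.6-fold, and Oas1a had 42542 against 5031 and 1372, 8.46-fold. Oas3 was 9.69-fold higher, Ifit1 16.2-fold and Ifit3 12.3-fold, the last 2 being binders of foreign RNA. Other interferon-stimulated genes did not follow. Irf7 had 8613 in CD11b+ cDC against 31744 in pDC, Rsad2 had 17449 against 17218, and Bst2 had 3551 against 287619. The 3 lower genes were Iigp1, an immunity-related GTPase, at 858 against 14604 and 7183 (8.38-fold), Oasl1 (2.87-fold) and Trim30a (2.09-fold on 1 of 2 probe sets). Under spike-in scaling only Iigp1 of these 3 remained past the size.

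The promoters of these genes were searched for the interferon-stimulated response element, the sequence through which interferon signalling is known to act. The core searched was GAAANNGAA on either strand, in 250 bases before and 50 after each gene's start, taken from RefSeq on the mouse assembly GRCm38.p6. Of the 10 higher interferon-stimulated genes, 8 had a promoter in the table and 7 of these held the core. Of the 3 lower genes, 2 had a promoter and 1 held it, and of the 20 genes in neither group 15 had a promoter and 8 held it. Over all 8977 promoters of genes above background the share was 7.4%, over 432 promoters of higher genes 12.5% and over 264 promoters of lower genes 5.7%. A match is a description of letters and not a site. Stretches of 49 bases are shown for the 3 higher genes whose match lies clear of the start site, then for Trim30a, which was lower. The match nearest the start begins at -69 in Oas3 (chr5:120777700-120777748, minus strand), at -84 in Ifit1 (chr19:34640785-34640833, plus strand), at -102 in Ifit3 (chr19:34583407-34583455, plus strand) and at -35 in Trim30a (chr7:104465200-104465248, minus strand). Capitals mark every match to the core, read on the gene's strand, so that a match on the other strand appears as its reverse complement.
Oas3: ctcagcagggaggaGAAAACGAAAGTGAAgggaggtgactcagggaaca
Ifit1: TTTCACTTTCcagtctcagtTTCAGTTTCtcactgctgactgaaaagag
Ifit3: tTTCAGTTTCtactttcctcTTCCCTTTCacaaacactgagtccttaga
Trim30a: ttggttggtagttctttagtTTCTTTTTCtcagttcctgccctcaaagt

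Cores of factors tied to CD11b+ cDC or to myeloid cells were counted in the same way. The RBPJ core TGGGAA was in 22.7% of the promoters of higher genes, 22.3% of those of lower genes and 22.6% of all. The KLF core CCACCC was in 39.8%, 37.1% and 36.4%, and the PU.1 core GAGGAAG in 18.8%, 14% and 13.5%. The composite core of ETS and IRF factors, GGAANNGAA, was in 9.3%, 5.3% and 7.5%. Matches that overlap another motif were counted for both. Promoters of higher genes were less rich in G and C than those of lower genes, with medians of 57.7% and 62.5% against 60.7% over all, which bears on every such share.

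Genes tied to monocytes and to the Esam-low part of the CD11b+ cDC were frequent among the higher genes. Of 27 above background, 12 were higher (44.4%, against 5.00% over all genes) and 1, Csf2rb2, was lower (3.70%, against 2.98%). Ifitm6, an interferon-induced membrane protein of myeloid cells, had 64201 in CD11b+ cDC against 249 in pDC and 4042 in CD8+ cDC, 15.9-fold. Csf1r, the receptor for M-CSF, had 64906 against 7665 and 11778, which was 5.51-fold, and its 3 probe sets all passed. Lyz2, lysozyme, had 109149 against 4227 and 35560.5, 3.07-fold. Ccr2, the receptor of inflammatory monocytes, was brightest in pDC at 15908, with 1226 in CD11b+ cDC, and Cx3cr1 had 496 against 273 and 321, which was not called.

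Markers of other myeloid cells were also frequent among the higher genes. Their list shares members with the one above, and the higher genes Csf1r and Lyz2 count in both. Of 20 monocyte and macrophage markers, 7 were higher (35.0%, against 5.00% over all genes) and 0 lower (12 higher with spike-in scaling). Their summed signal was 428843 in CD11b+ cDC, 80841 in pDC and 340512 in CD8+ cDC, and Treml4 gave 163968 of the CD8+ sum. Adgre1, the F4/80 receptor, had 70516 against 2641 and 3196, 22.1-fold. C1qa, C1qb and C1qc, the chains of complement C1q, were 4.34-fold, 2.26-fold and 2.60-fold higher. Fcgr1, Mertk and Cd163 of the same list were not called, and Fcgr1 had 352 against 358 and 359.

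Of 13 neutrophil markers measured, 10 were above background, and 8 of these were higher (80.0%, against 5.00% over all genes) and 0 lower. Their summed signal was 27756 in CD11b+ cDC, 3650 in pDC and 2214 in CD8+ cDC. Mmp9, the gelatinase of neutrophil granules, had 8833 against 65.0 on each other array and was at least 79.5-fold higher. Ngp had 8912 against 1266 and 458, S100a8 had 4393 against 489.8 and 242, and S100a9 had 1065 against 148 and 188. Camp, Ltf, Lcn2 and Mpo were 2.76-fold to 5.00-fold higher. Cxcr2, Mmp8 and Padi4 were at background on all 3 arrays, and Elane had 133 against 122 and 125. CD11b is also carried by neutrophils and monocytes, and the part of such cells in the results was not tested.

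Markers of lymphocytes and platelets were less uniform. Of 7 T and NK cell markers above background, 2 were higher (28.6%, against 5.00% over all genes), Cd5 (6.55-fold) and Gzma (2.06-fold). Cd3d, Cd3e and Cd3g were at background on all arrays. The summed signals of this list were 88256 in CD11b+ cDC, 103078 in pDC and 7072 in CD8+ cDC. They came mostly from the single gene Klrd1, at 83389, 96243 and 4413 in the same order. Of 11 B and plasma cell markers, 2 were higher (18.2%, against 5.00% over all genes) and 1 lower (9.09%, against 2.98%). Their summed signals were 229990, 417353 and 135224 in the same order, of which Ighm alone gave 142572, 171513 and 50809. Bank1, a B cell scaffold protein, had 14235 against 549.7 and 2286, but Cd79a and Pax5 were at background on all arrays. Jchain had 14060.2 in CD11b+ cDC, 7869.6 in pDC and 957 in CD8+ cDC and was not called. Ms4a1 was brightest in CD8+ cDC at 19147, with 11046 in CD11b+ cDC and 223 in pDC. Cd79b was brightest in pDC at 10103, with 4026 in CD11b+ cDC and 381 in CD8+ cDC. Fcrla, an Fc receptor-like protein, had 118 against 54639 and 13003, 111-fold lower on its brightest probe set, while another of its 3 probe sets gave 1.0-fold. Of 7 erythroid and platelet markers, 2 were higher (28.6%, against 5.00% over all genes), the platelet chemokines Ppbp (6.06-fold) and Pf4 (3.83-fold). Gp9, Gp5 and Gp1bb were at background. The summed signals of that list were 7932 in CD11b+ cDC, 3423 in pDC and 3904 in CD8+ cDC. The part of these cells in the results was not tested.

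Among secreted signals, 5 of 17 cytokines above background were higher (29.4%, against 5.00% over all genes) and 0 lower. The list had 32 cytokines on the array. Il1rn and Tnfsf14 were above background only in CD11b+ cDC, where they were called. Ltb, lymphotoxin beta, which shapes lymphoid tissue, had 63363 in CD11b+ cDC against 16873 in pDC and 5693 in CD8+ cDC, 3.76-fold. Il1b had 48684 against 166 and 23205, 2.10-fold above CD8+ cDC, and Il1rn, the antagonist of its receptor, was at least 6.83-fold higher on 1 of 2 measured probe sets. Il12b, by contrast, was brightest in CD8+ cDC at 13132, with 295 in CD11b+ cDC. In the lymphotoxin and non-canonical NF-kB list 5 of 24 genes were higher (20.8%, and 12 genes with spike-in scaling) and 0 lower. The higher ones were Tnfsf14, Ltb, Relb, Bcl3 and Rel. Relb, the NF-kB subunit of that arm, had 88805 against 4535 and 29238.

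Of 16 chemokines above background, 5 were higher (31.2%, against 5.00% over all genes) and 0 lower. Ccl9 had 7159.7 against 277 and 333, 21.5-fold, Ccl3 was 4.88-fold higher and Ccl5 2.73-fold, and the other 2 were Ppbp and Pf4. Of 17 chemokine and trafficking receptors, 2 were higher (11.8%, against 5.00% over all genes) and 2 lower (11.8%, against 2.98%). Ccr6, the receptor of Ccl20, had 5235 against 259.6 in pDC and 39.9 in CD8+ cDC, 20.2-fold, and Ccrl2 was 15.5-fold higher. Cxcr3, the receptor of the interferon-induced chemokines, had 1045 against 54069.9 and 26748, 25.6-fold lower. Ccr9, a gut-homing receptor, had 412 against 126946 and 7355, 17.9-fold lower, and 3 of its 5 probe sets passed. Ccr7, which guides dendritic cells to T cell zones, had 17419.5 in CD11b+ cDC, 483 in pDC and 31729 in CD8+ cDC.

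Receptors for metabolites, nucleotides and lipids gave several of the widest differences. Of 29 above background, 7 were higher (24.1%, against 5.00% over all genes) and 2 lower (6.90%, against 2.98%). The list also held receptors of other kinds, and Adgre1, Adgre4 and Fpr2 among these count in the 7. Adgre1 counts as a macrophage marker above as well. Ptger3, the prostaglandin E2 receptor EP3, had 28982 against 75.0 in pDC and 131 in CD8+ cDC, 222-fold. Sucnr1, the succinate receptor, had 10568 against 103 and 104, at least 95.1-fold. Ffar2, which senses short-chain fatty acids, had 207692 against 248 and 26361, which was 7.88-fold above CD8+ cDC, and both of its probe sets passed. In the other direction, P2ry14, the receptor for UDP-glucose, had 708 against 145212 and 91958, 129.8-fold lower. Gpr171 had 355 against 48099.9 and 16964, 47.8-fold lower. Ptger3, Sucnr1, P2ry14 and Gpr171 were each read by 1 measured probe set.

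Of 16 enzymes of prostaglandin and leukotriene metabolism and retinoid genes above background, 7 were higher (43.8%, against 5.00% over all genes) and 0 lower. The list had 26 genes on the array. Rarg and Hpgds were above background only in CD11b+ cDC, where they were called. Ptgs2, cyclooxygenase 2, had 12219 against 77.8 and 734, 16.6-fold, with a second probe set at least 1.90-fold higher. Pla2g7, which degrades platelet-activating factor, had 5046 against 208 and 322, 15.7-fold. Lta4h, which makes leukotriene B4, was 3.08-fold higher on 2 probe sets that both passed. Pla2g4a, the phospholipase that frees arachidonic acid, was 2.12-fold higher and Hpgd, which inactivates prostaglandins, was 2.35-fold higher. Aldh1a2, the retinoic acid-producing enzyme, was brightest in CD8+ cDC at 3801, with 1794 in CD11b+ cDC.

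Among pattern recognition genes, 4 of 27 were higher and 1 was lower (8 and 1 with spike-in scaling). The shares were 14.8% and 3.70%, against 5.00% and 2.98% over all genes. Tlr1, the partner of TLR2 for bacterial lipopeptides, had 50790.4 against 104 in pDC and 3806 in CD8+ cDC, 13.3-fold. Tlr5, the flagellin receptor, was at least 6.36-fold higher with a signal of 707, and Nod1, a sensor of peptidoglycan, was 6.21-fold higher. Tlr12, a sensor of parasite profilin, had 116 against 4685 and 4045, 34.7-fold lower. Tlr3 and Tlr7 lay between the other subsets, Tlr7 at 8127 in CD11b+ cDC against 36594 in pDC and 140.1 in CD8+ cDC.

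Of 22 MHC class II presentation genes above background, 2 were higher (9.09%, against 5.00% over all genes) and 0 lower (7 higher with spike-in scaling). H2-Eb2, a class II beta chain, had 32226 against 732 and 4646, 6.94-fold, and H2-DMb2, a chain of the peptide-loading factor DM, had 128078 against 43167 and 30813, 2.97-fold on the brightest of 3 probe sets that all passed. H2-Aa had 529116, 417979 and 496804 in CD11b+ cDC, pDC and CD8+ cDC, and H2-Ab1 had 695183, 502865 and 765493. For class I and cross-presentation, 0 of 27 genes were higher and 1 was lower (3.70%, against 2.98% over all genes). This was the translocon subunit Sec61a1 at 2.12-fold, on 1 of its 6 probe sets. The median log2 difference of that list was -0.26 against pDC and -0.53 against CD8+ cDC.

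Of 22 costimulatory and checkpoint genes, 3 were higher (13.6%, against 5.00% over all genes) and 2 lower (9.09%, against 2.98%). Pdcd1lg2 and Cd274, the PD-1 ligands PD-L2 and PD-L1, were 12-fold and 5.27-fold higher. Pdcd1lg2 had 3127 against 43.6 and 261, and Cd274 had 29976 against 1963 and 5688. Icosl, the ICOS ligand, was 2.74-fold higher. Ido1, which degrades tryptophan, was below background at 90.9 against 1952 and 926, at least 8.33-fold lower. Cd86 was brightest in CD8+ cDC at 70310.3, with 12878 in CD11b+ cDC, and Cd80 was 1.08-fold above CD8+ cDC.

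Of 34 cell cycle genes, 6 were higher than in both others at 2-fold (17.6%, against 5.00% over all genes) and 0 were lower. At any size 29 were higher, and over all genes the share at any size was 28.7%. With spike-in scaling 29 were called, where the share of higher genes over all genes was 14%. The median log2 difference was 3.98 against pDC and 0.50 against CD8+ cDC, so the distance was mainly from pDC. Top2a, the DNA topoisomerase of dividing cells, had 41156 against 896 in pDC and 19409 in CD8+ cDC, 2.12-fold on 1 of 2 measured probe sets. Nusap1, a spindle protein, had 10146 against 147 and 3638, 2.79-fold. Mki67 had 74329 against 3831 and 48604, which was 1.53-fold and not called. Immediate early genes behaved in a similar way against the pDC array, with a median log2 difference of 2.59 against pDC and 0.25 against CD8+ cDC. Of 27, 4 were higher (14.8%, and 11 genes with spike-in scaling), namely Fosl2, Nr4a1, Zfp36 and Klf4.

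The remaining groups added single genes. S100a4, a calcium-binding protein of motile cells, had 196451 against 1536 and 3490.3, 56.3-fold, and Anxa2 was 2.89-fold higher. With S100a8 and S100a9, 4 of 18 S100, annexin and galectin genes were higher (22.2%, against 5.00% over all genes) and 0 lower. Of 37 integrin and adhesion genes 4 were higher (10.8%, against 5.00% over all genes), namely Itgam, Esam, F11r and Alcam (3 of 5 probe sets). Only 1 was lower (2.70%, against 2.98%). That gene, Cadm1, which binds CRTAM on T cells, had 1163 against 13334 and 128249, and 3 of its 4 probe sets passed. Of 29 calcium channel and release genes 2 were higher (6.90%, against 5.00% over all genes), Ryr3 and Cacnb4, and 2 were lower (6.90%, against 2.98%). Ryr1, the isoform related to Ryr3, had 16292 against 9504 and 7882, 1.71-fold and not called. Cacna1e, a voltage-gated channel subunit, had 2561 against 64782 and 25736, 10.1-fold lower. Of 28 other uptake receptors, Lrp1, Axl and Msr1 were higher (10.7%, against 5.00% over all genes). Cd36, a scavenger receptor, was lower on 2 of 3 probe sets (3.57% of the list, against 2.98%). Among 19 genes shared by all cDC, 3 were higher (15.8%, against 5.00% over all genes), Relb, Nav1 (2 of 4 probe sets) and Kit. None was lower (6 higher and 0 lower with spike-in scaling).

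**Figure D5:**
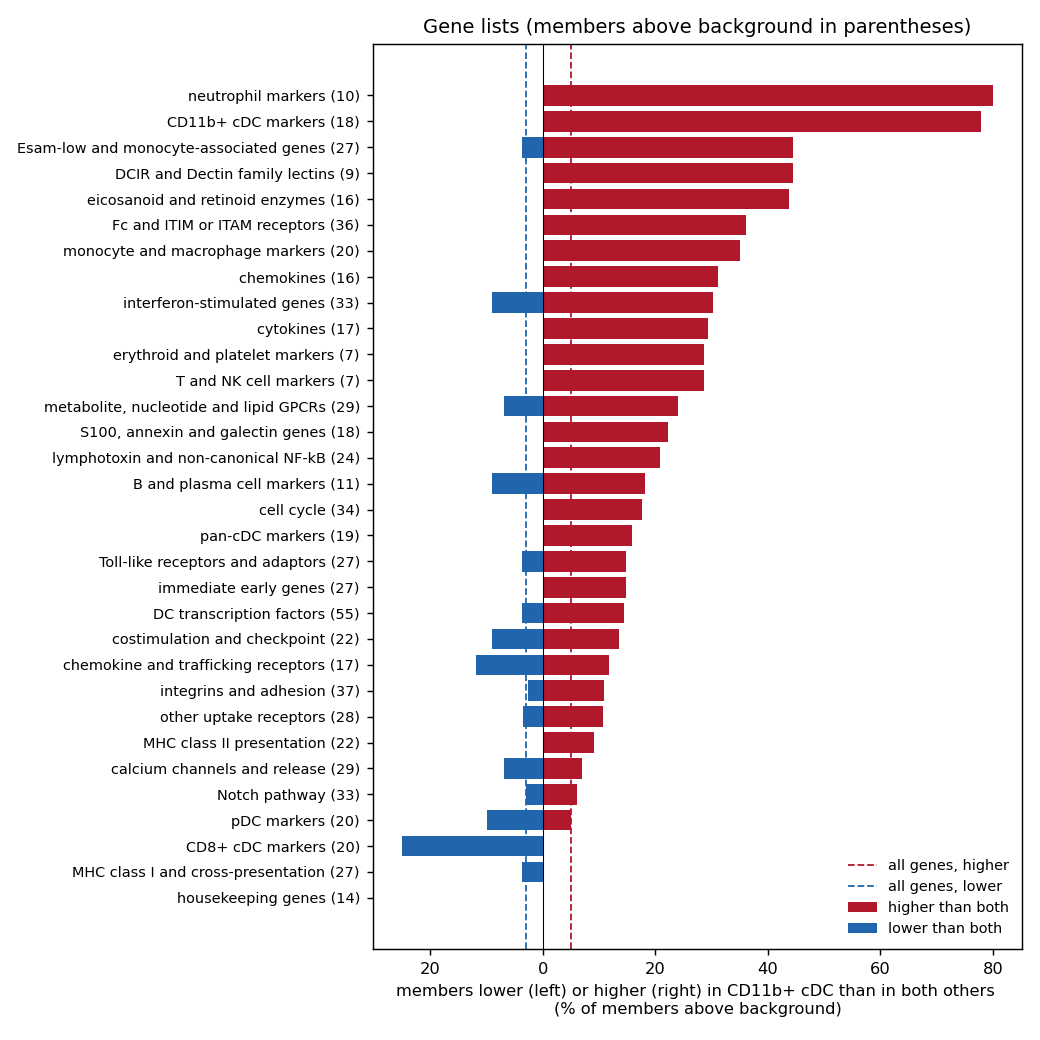
Share of the members of each gene list (those above background, number in parentheses) that were higher (right) or lower (left) in CD11b+ cDC than in both other subsets, in percent. Dashed lines mark 5.00% higher and 2.98% lower over all 11011 genes. The longest bars are those of neutrophil markers (80.0%) and CD11b+ cDC markers (77.8%), and housekeeping genes have none. Lists overlap, so a gene can count in several. They were chosen with earlier results of these data known, and the CD11b+ cDC list includes the markers given for this comparison.

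Several genes outside the lists had wide differences. These genes, and the lower ones that follow, were named on condition that every measured probe set passed. Agreement of their probe sets was thus set in advance, and only its size is described. Abcb1a, a drug efflux pump, had 23829 against 101 in pDC and 429 in CD8+ cDC, and its probe sets gave 55.6-fold and 115-fold. Cyp4f16, a cytochrome P450 enzyme, had 180909 against 6924 and 6428, 26.1-fold, and 10.9-fold on its other probe set. St8sia6, a sialyltransferase, had 57873 against 1469 and 2318, and its 3 probe sets ranged from 25.0-fold to 36.4-fold. Il31ra, the receptor chain for interleukin-31, was 25.9-fold higher with a signal of 3304, and its other probe set gave at least 4.27-fold. The uncharacterised gene 2900052N01Rik had 5408 against 77.8 and 78.7, at least 48.6-fold, and its other measured probe set gave at least 6.18-fold.

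Among the lower genes, Itm2a, a membrane protein, had 192 against 5168 in pDC and 10662 in CD8+ cDC, 26.9-fold, but 2.31-fold on its other probe set. Nek6, a mitotic kinase, had 954 against 24587 and 17600.4, and its probe sets gave 18.4-fold and at least 25.0-fold. Enpp4, an ectoenzyme that cleaves nucleotides, had 2231 against 28162 and 30002, 12.6-fold, with 7.56-fold on its other probe set. Zc3h12c, Gng12 and Slco3a1 were 10.7-fold to 10.8-fold lower on their brightest probe sets. Over all of their probe sets the range was 4.91-fold to at least 52.1-fold (Gng12). Laptm4b, a lysosomal membrane protein, was 9.61-fold to 22.8-fold lower over its 3 probe sets.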

How the data were processed

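Per the labels' protocols, each of the 3 pooled RNA samples was amplified, labelled and hybridised to 1 array. The authors deposited 1 linear signal intensity per probe set and array, and the submitters' processing notes name MAS5, with no version. Once ranked, the values of the 3 arrays lay 0.011 from their common mean on average (absolute log2). Any scaling beyond MAS5 is not given in the sources used. Folds are therefore on the authors' scale as deposited.

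Of 45101 probe sets (64 controls), 34958 were annotated to 1 gene, 932 to several and 9211 to none. By gene number, 34754 of the 34958 were found in the GRCm38.p6 gene table. A gene's value is that of its brightest probe set by mean log2 signal, and no gene's level was set against another's. Signals below the background of 111 were set to it. No test was run, since each group has 1 array. The code that applies the size rule was checked on simulated data.

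Members and lists were chosen with earlier results of these data known. The 32 gene lists hold 956 entries, of which 854 matched a gene measured and 102, Clec4a1 and Clec4a4 among them, were not analysed here. The named genes were up to 12 per direction with the largest fold whose probe sets (at least 2) all passed and whose brightest array was at 4 times background. To these were added the 5 given markers, Cd8a, Itgax and Clec4a3, up to 4 members per list and direction, subset markers that went against their list, and genes next to the 2-fold limit. Other genes in the text, list members that were not called among them, were chosen after their values were seen. The response element and ETS-IRF motifs were also added after the data were seen. Proteins were not compared here. Python 3.11.15, pandas 2.3.3, numpy 2.4.6 and matplotlib 3.10.9 were used.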

Additional observations from a re-analysis of the deposited data

How the results depend on the processing

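With 1 array per subset, no array could be left out. No paired analysis was possible because each subset has 1 sample. Scaling on spike-ins gave 1507 higher and 110 lower genes. Requiring every measured probe set to pass gave 452 higher and 206 lower. Scaling to a median difference of 0, a background at the 90th or 99th percentile, the median over probe sets, and only probe sets without the _s_at, _x_at or _a_at suffix gave 458 to 565 higher and 243 to 337 lower genes. The first of these could change little, since the median log2 differences were already -0.01 against pDC and 0.00 against CD8+ cDC. The median over probe sets shared 411 higher and 208 lower genes with the calls in the text. Of the 117 named genes compared, 0 reversed under the 7 alternatives. With the median over probe sets 17 fell short of the 2-fold size, and 15 did so when every probe set had to pass. With only probe sets without those suffixes, 97 kept their call, 6 fell short and the rest were not compared. With spike-in scaling 8 named genes, all lower ones, fell short of the 2-fold size, among them Notch1, Cd36, Oasl1 and Trim30a. With the 99th percentile as background (412), 10 fell short, among them Tlr5, Il1rn, Tnfsf14 and Cr2, whose signals were less than 2-fold above it.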
